A study of Mus musculus with 62 samples.

Results

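Lcn2, Saa1, Saa2, Saa3, Hp, Itih4, Orm1, Cp and Alb code for secreted proteins of the acute phase, the change in plasma proteins that follows infection, injury or a tumour. These 9 genes were read by symbol from a deposited table of TPM, transcript levels scaled for transcript length and to the same total in every library, that holds 47643 gene symbols, 23373 of them above 0 in at least 1 library. They were chosen by function, with their measured differences between CAC and the other arms at week 8 in view. Hearts were sampled from mice injected with cachectic melanoma cells (CAC), from mice injected with non-cachectic melanoma cells (NCAC) and from mock-injected mice (Con), at 2, 4, 6 and 8 weeks after injection. Cachexia is the loss of muscle and fat that accompanies some cancers. All mice were 2-month-old females; the sample labels give the strain as C57BL6/J and the series text as NCI Ath/nude, and the files do not settle which is right. The names of the melanoma lines, the injection site and the hosts' remaining immune cells are not given in the sources used here. Each of the 12 groups held 5 libraries, apart from 7 at CAC week 8 and 4 at Con week 4, where replicate 2 was left out.

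The acute phase is driven by interleukin-6, interleukin-1 and related cytokines, whose signals reach gene promoters through STAT3, the C/EBP factors and NF-kappaB. In the liver these signals raise serum amyloid A, haptoglobin, orosomucoid and ceruloplasmin and lower albumin, which is called a negative acute-phase protein for that reason. Lipocalin-2 and serum amyloid A3 are also made outside the liver, by macrophages, fat cells, epithelia and stressed parenchyma. In the heart, lipocalin-2 is known as a product of stressed cardiac muscle and of infiltrating cells.

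In CAC hearts Lcn2, Saa3, Hp, Itih4 and Cp were higher than in mock-injected hearts. Itih4 first passed the test at week 2, Lcn2 and Cp at week 4, and Hp and Saa3 at week 6, and whether the genes differed in timing was not tested. No NCAC or Con library reached 1 TPM of Saa3, so it could be tested only through CAC hearts and its p-values carry no weight of their own. The week 2 calls of Itih4 and the week 4 calls of Cp were lost under several other settings, among them leaving out single libraries, with the values given beside each gene. At week 6 Lcn2 averaged 137 TPM in CAC hearts, against 0.740 TPM in NCAC hearts and 0.636 TPM in Con hearts. Alb behaved otherwise, with its highest values in single week 2 libraries. At week 6 it was near 0 in every arm, with 0 in all CAC libraries and at most 0.0367 TPM in NCAC and Con hearts. The week 6 log2 difference between CAC and Con was -0.01 (limma adjusted p = 0.985). Saa1, Saa2 and Orm1 reached no more than 1.01 TPM in any of the 61 libraries. None of the 6 genes that could be tested passed the test between NCAC and Con hearts at any week.

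The promoter sequences of 5 of the genes are shown because these genes are classed together but reached very different levels in CAC hearts. They are the 300 bases from 250 before to 50 after the RefSeq start on GRCm38.p6, read 5′ to 3′ on the gene's strand. Lcn2 lies at chr2:32387690-32387989 (minus strand), Saa3 at chr7:46715627-46715926 (minus), Saa1 at chr7:46742931-46743230 (minus), Saa2 at chr7:46751583-46751882 (plus) and Itih4 at chr14:30886226-30886525 (plus). Capitals mark matches, on either strand, to a C/EBP motif (TTNNGNAA), a STAT motif (TTCNNNGAA) or a kappaB motif (GGGANNNNCC).
Lcn2: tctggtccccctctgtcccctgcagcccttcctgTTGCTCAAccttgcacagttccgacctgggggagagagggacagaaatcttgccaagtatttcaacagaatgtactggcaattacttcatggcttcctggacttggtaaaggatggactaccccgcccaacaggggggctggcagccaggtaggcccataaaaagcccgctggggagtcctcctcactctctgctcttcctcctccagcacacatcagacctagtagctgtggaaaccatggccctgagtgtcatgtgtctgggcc
Saa3: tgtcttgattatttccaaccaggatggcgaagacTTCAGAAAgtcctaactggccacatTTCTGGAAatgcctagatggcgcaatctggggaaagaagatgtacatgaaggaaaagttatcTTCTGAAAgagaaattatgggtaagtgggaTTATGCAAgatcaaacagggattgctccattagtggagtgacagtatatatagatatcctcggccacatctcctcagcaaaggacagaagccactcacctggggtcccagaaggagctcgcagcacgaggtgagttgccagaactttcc
Saa1: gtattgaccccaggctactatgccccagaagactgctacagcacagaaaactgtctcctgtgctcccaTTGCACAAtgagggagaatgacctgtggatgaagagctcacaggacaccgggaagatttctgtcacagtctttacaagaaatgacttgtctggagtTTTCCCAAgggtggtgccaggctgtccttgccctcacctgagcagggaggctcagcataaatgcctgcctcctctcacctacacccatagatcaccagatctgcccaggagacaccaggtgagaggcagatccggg
Saa2: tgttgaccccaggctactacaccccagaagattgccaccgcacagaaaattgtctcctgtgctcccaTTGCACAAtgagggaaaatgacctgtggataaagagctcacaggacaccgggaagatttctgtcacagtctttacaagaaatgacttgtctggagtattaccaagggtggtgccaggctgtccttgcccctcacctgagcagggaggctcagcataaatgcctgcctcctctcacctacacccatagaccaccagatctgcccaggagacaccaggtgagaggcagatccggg
Itih4: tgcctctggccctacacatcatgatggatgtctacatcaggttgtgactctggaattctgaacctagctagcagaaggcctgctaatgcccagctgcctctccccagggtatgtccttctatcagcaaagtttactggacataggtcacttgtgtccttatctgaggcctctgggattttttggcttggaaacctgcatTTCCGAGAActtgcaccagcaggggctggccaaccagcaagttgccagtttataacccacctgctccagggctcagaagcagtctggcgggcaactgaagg

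Of the 9 genes, 7 had a promoter entry in the RefSeq table used here. The C/EBP motif matched 4 times in the Saa3 promoter, 2 times in that of Saa1 and once each in those of Saa2 and Lcn2. The Alb promoter, not shown, also held 4 C/EBP matches. Each Cp window, not shown, held 1 C/EBP match, and the one from chr3:19956999 also held 1 kappaB match. The Itih4 promoter held 1 STAT match, TTCCGAGAA, 51 bases before the start, and no C/EBP match. Among all 32851 RefSeq promoters of this length, 40.7% held the C/EBP motif, 8.30% the STAT motif and 20.7% the kappaB motif. A match to these letters describes the sequence and is not evidence of binding, and a window without one says nothing about the factor. The Saa1 and Saa2 windows were identical at 95.7% of positions, whereas Saa1 and Saa3 shared 56.7%. The Saa1 and Saa2 transcripts are also near copies, with 93.9% identity over the longer, so reads could be divided between them and each value alone is uncertain. Saa1 lies at chr7:46740497-46742980, Saa2 at chr7:46751790-46754313 and Saa3 at chr7:46711998-46715700 in the GENCODE M21 annotation, a single cluster.

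The deposited TPM hold no read depth, so no counting interval can be given and values near 0 may rest on a few reads. The transcripts of 7 cardiac muscle genes were high in all 61 libraries, with Myh6, the cardiac myosin heavy chain gene, between 3419 and 8033 TPM. Mitochondrially encoded transcripts took 49.3% to 61.1% of each library, against 89.1% in the omitted Con week 4 replicate 2, which had 612 TPM of Myh6. That share was lower in the week 6 CAC libraries, at 49.3% to 53.2%, than in the NCAC (54.1% to 60.2%) and Con libraries (57.5% to 60.9%) of that week. The remaining genes then take a larger share: the median log2 difference over all 12541 genes tested was 0.10, 0.09 and 0.21 for CAC minus Con at weeks 2, 4 and 6, and 0.07, 0.08 and 0.19 for CAC minus NCAC. Differences below are best read against these shifts. In CAC week 8, replicate 3 stood apart with the lowest Lcn2, Saa3, Hp, Itih4 and Cp, and values of that group are given with and without it.

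Lcn2 encodes lipocalin-2, which binds bacterial iron carriers and is released in inflammation; the gene lies at chr2:32384633-32388252. At week 2 its level was 1.05, 4.61, 11.95, 2.90 and 1.17 TPM in CAC hearts, against 0.768 to 2.42 TPM in NCAC hearts and 0.460 to 1.55 TPM in Con hearts. Of the 5 CAC libraries, 3 lay above every NCAC and every Con library, and the other two lay among them. At week 4 it was 12.8, 132, 12.2, 32.3 and 6.57 TPM in CAC hearts, against 0.736, 1.17, 0.649, 1.82 and 0.593 TPM in NCAC hearts and 0.667, 0.848, 1.17 and 1.89 TPM in Con hearts. The lowest CAC heart then exceeded the highest of the other arms, and replicate 2 was higher than 4 of the 5 CAC hearts of week 6. At week 6 it was 292, 129, 96.2, 128 and 40.3 TPM in CAC hearts, against 0.600 to 0.987 TPM in NCAC hearts and 0.517 to 0.799 TPM in Con hearts. Among all symbols above 0, ranked by mean TPM, Lcn2 was number 529 of 20057 in CAC hearts and number 12268 of 19939 in Con hearts at week 6.

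The log2 difference of Lcn2, on the log2(TPM + 1) scale used throughout, was 1.11 ± 0.64 (SE) between CAC and Con at week 2, which did not pass the test (limma adjusted p = 0.297). At week 4 Lcn2 was higher in CAC hearts by 3.44 ± 0.68 over Con (adjusted p = 0.000332) and by 3.55 over NCAC (adjusted p = 6.65e-05). At week 6 it was higher by 6.13 ± 0.64 over Con (adjusted p = 6.45e-11) and by 6.04 over NCAC (adjusted p = 1.12e-10). The ratios of mean TPM to the Con mean were 4.41, 34.3 and 216 at weeks 2, 4 and 6. Both differences of a week share the same CAC libraries and are not independent. Without CAC week 4 replicate 2 the week 4 difference from Con was 2.80 (adjusted p = 0.00478).

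At week 8 the CAC libraries ran from 3.22 to 342 TPM of Lcn2 with a median of 275 TPM, against 0.548 to 1.67 TPM in NCAC hearts and 0.570 to 1.33 TPM in Con hearts. Even replicate 3, at 3.22 TPM, lay above every NCAC and Con library, and the other 6 CAC hearts held 209 TPM or more. The mean without replicate 3 was 279 ± 55.5 TPM (SD, n = 6). The log2 difference from Con was 6.37 ± 0.59 with all 7 libraries and 7.23 without replicate 3. The 9 genes were proposed with the week 8 comparisons in view, so week 8 differences of CAC are given for description and without a test. Of all genes, 50.8% were called higher and 9.98% lower than in Con at week 8, and 57.4% higher and 8.76% lower than in NCAC, from which nothing is read about the 9 genes. In order of their means, CAC at weeks 8, 6, 4 and 2 came first and the 8 NCAC and Con groups followed, between 0.636 and 1.15 TPM. The ranges of neighbouring CAC weeks overlapped, as did those of the NCAC and Con groups.

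**Figure D1:**
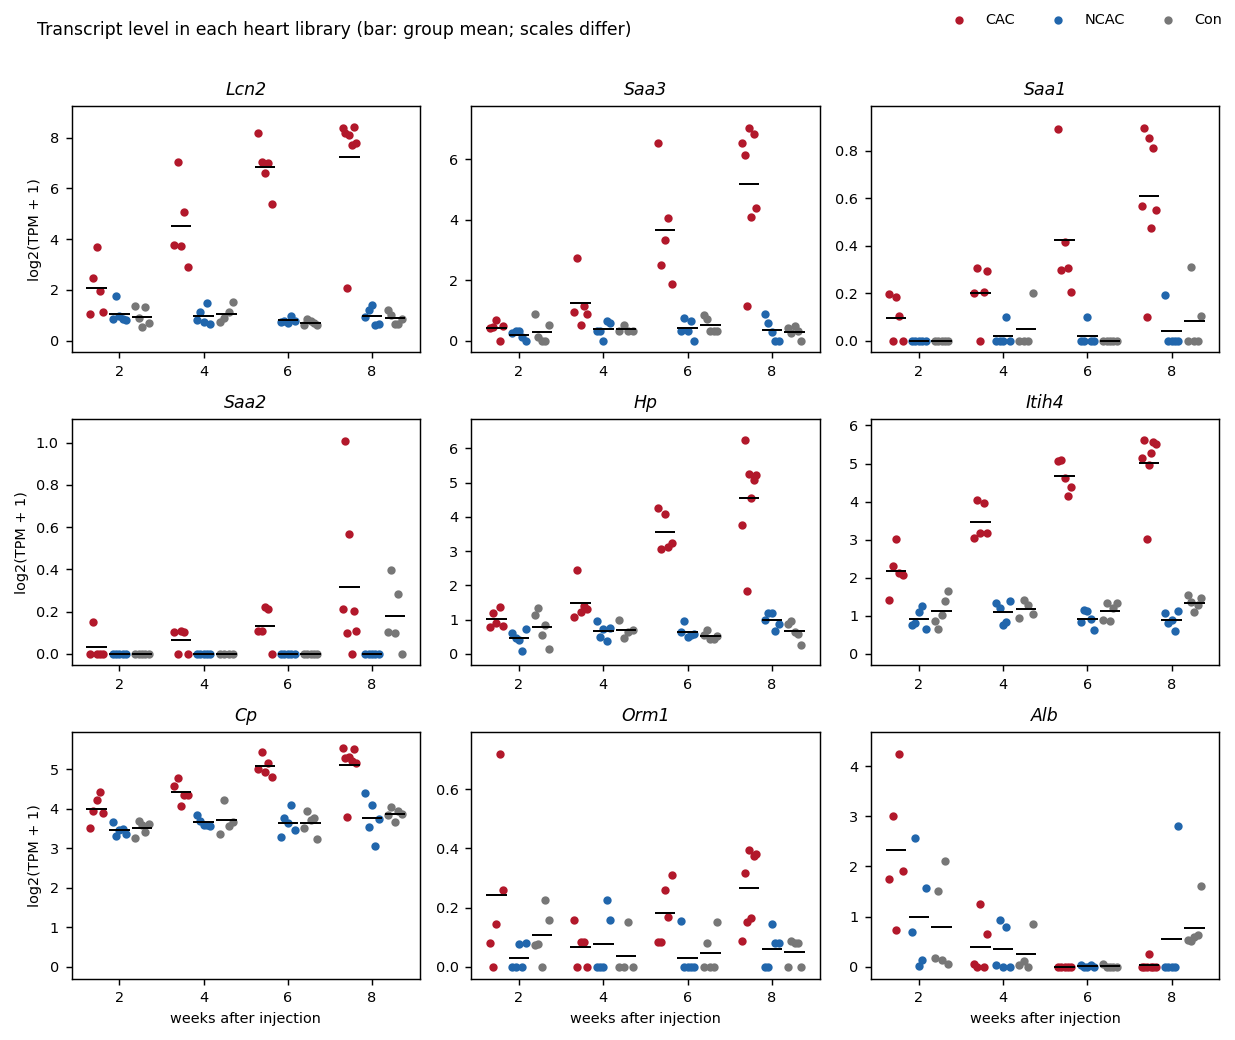
Level of each of the 9 genes as log2(TPM + 1), one point per heart library, by weeks after injection, for CAC (red), NCAC (blue) and Con (grey); bars are group means and vertical scales differ by gene. Lcn2, Saa3, Hp, Itih4 and Cp separate in CAC hearts by week 6, while CAC week 8 replicate 3 lies far below the rest of its group.

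Saa3 encodes serum amyloid A3, the form of this lipid-binding family that is made mainly outside the liver. At week 2 it was 0.333, 0.377, 0.623, 0 and 0.384 TPM in CAC hearts, against 0 to 0.262 TPM in NCAC hearts and 0 to 0.826 TPM in Con hearts. These ranges overlapped, and the log2 difference from Con was 0.11 (limma adjusted p = 0.927). At week 4 it was 0.939, 5.72, 0.437, 1.22 and 0.861 TPM in CAC hearts, against 0 to 0.573 TPM in NCAC hearts and 0.244 to 0.427 TPM in Con hearts. All 5 CAC values lay above the Con range and 4 of 5 above the NCAC range, yet the differences of 0.88 from each did not pass the test (adjusted p = 0.316 for NCAC and 0.347 for Con). Replicate 2 carried much of that difference, which was 0.51 from Con without it.

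At week 6 Saa3 stood at 90.9, 4.64, 8.98, 15.7 and 2.63 TPM in CAC hearts, against 0 to 0.666 TPM in NCAC hearts and 0.240 to 0.808 TPM in Con hearts. The lowest CAC heart was above every NCAC and Con heart, but the CAC hearts themselves ranged widely, with replicate 1 far above the others. The gene was higher by 3.15 ± 0.59 over Con (limma adjusted p = 1.65e-05) and by 3.25 over NCAC (adjusted p = 1.11e-05). No NCAC or Con library of any week reached 1 TPM of Saa3. The gene thus passed the filter on low values only through CAC hearts, and its p-values carry no weight of their own. Without CAC week 6 replicate 1 the difference from Con was 2.43 (adjusted p = 0.000383). At week 8 the CAC hearts ran from 1.22 to 131 TPM with a median of 69.8 TPM, against 0 to 0.821 TPM in NCAC hearts and 0 to 0.412 TPM in Con hearts. The week 8 log2 difference from Con was 4.87 ± 0.54, and 5.54 without replicate 3. Saa3 was at 19.9 TPM or less in 3 of these 7 CAC hearts and at 69.8 TPM or more in the other four.

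Saa1 and Saa2, which code for the serum amyloid forms that the liver releases in bulk, did not reach 1 TPM in enough libraries to be tested. Saa1 was above 0 in 25 of the 61 libraries and Saa2 in 18. At week 6 Saa1 stood at 0.854, 0.230, 0.334, 0.237 and 0.153 TPM in CAC hearts, against 0.0720 TPM in 1 NCAC heart, 0 in the other four, and 0 in all 5 Con hearts. The CAC hearts thus lay above all others at week 6, at levels of well under 1 TPM. At week 8 Saa1 ran from 0.0714 to 0.862 TPM in CAC hearts with a median of 0.483 TPM, against 0 to 0.144 TPM in NCAC hearts and 0 to 0.240 TPM in Con hearts. Replicate 3 was the lowest CAC library for Saa1 too.

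Saa2 was 0 in all 20 NCAC libraries. At week 8 it was 0.160, 1.01, 0.0711, 0.481, 0, 0.150 and 0.0767 TPM in CAC hearts, against 0.0733, 0.318, 0.0717, 0.216 and 0 TPM in Con hearts. Those 2 ranges overlapped, and only CAC replicates 2 and 4 exceeded the highest Con heart. Because reads may be split between the near copies, their sum is the safer value: it averaged 0.826 ± 0.591 TPM in CAC hearts at week 8 (SD, n = 7), against 0.0287 ± 0.0643 TPM in NCAC hearts and 0.199 ± 0.210 TPM in Con hearts (SD, n = 5 each). Saa3 in the same CAC hearts averaged 63.2 TPM, a level per transcript length that is far above this sum.

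Hp encodes haptoglobin, which captures free haemoglobin in plasma; the gene lies at chr8:109575128-109579172. At week 4 it was 1.11, 4.41, 1.35, 1.62 and 1.46 TPM in CAC hearts, against 0.291 to 0.947 TPM in NCAC hearts and 0.372 to 0.968 TPM in Con hearts. The CAC hearts lay above both other arms, but the log2 differences of 0.83 from NCAC (limma adjusted p = 0.102) and 0.80 ± 0.38 from Con (adjusted p = 0.146) did not pass. At week 6 it was 18.0, 7.30, 16.1, 7.65 and 8.35 TPM in CAC hearts, against 0.391 to 0.922 TPM in NCAC hearts and 0.355 to 0.617 TPM in Con hearts. Every CAC heart was far above the other arms, and Hp was higher by 3.02 ± 0.36 over Con (adjusted p = 1.73e-09) and by 2.91 over NCAC (adjusted p = 4.84e-09). The ratio of mean TPM to the Con mean was 25.9 at week 6 and 3.20 at week 4. At week 8 the CAC hearts ran from 2.58 to 74.2 TPM with replicate 3 the lowest, and the log2 difference from Con was 3.90 ± 0.33, or 4.36 without replicate 3.

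The week 4 result for Hp depended on the setting. It passed against Con when all 62 libraries were fitted (adjusted p = 0.0342), and against NCAC with a pseudocount of 0.1 TPM (adjusted p = 0.033) or in a fit of the compared groups alone (adjusted p = 0.037). With CAC week 8 replicate 3 left out of the fit, an alternative chosen after the values were seen, it passed against both (adjusted p = 0.015 for NCAC and 0.0287 for Con). At week 2 Hp ran from 0.725 to 1.60 TPM in CAC hearts, against 0.0645 to 0.652 TPM in NCAC hearts and 0.10 to 1.5 TPM in Con hearts. The CAC hearts were above the NCAC range but overlapped the Con range, and neither difference passed (adjusted p = 0.464 and 0.735).

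Cp encodes ceruloplasmin, the copper-carrying ferroxidase of plasma that loads iron onto transferrin; the gene lies at chr3:19957054-20009145. Unlike the other 8 genes it was well expressed in every arm, with no library below 7.30 TPM. At week 2 it was 10.5, 14.3, 17.6, 20.4 and 14.0 TPM in CAC hearts, against 8.99 to 11.7 TPM in NCAC hearts and 8.52 to 12.01 TPM in Con hearts. Only CAC replicate 1 lay within the other ranges, and the log2 difference of 0.48 ± 0.21 from Con did not pass (limma adjusted p = 0.17). At week 4 it was 22.9, 26.3, 15.7, 19.3 and 19.3 TPM in CAC hearts, against 10.7 to 13.2 TPM in NCAC hearts and 9.31 to 17.6 TPM in Con hearts. CAC replicates 1, 2, 4 and 5 exceeded every Con heart, and replicate 3 lay within the Con range. Cp was higher in CAC hearts by 0.72 ± 0.22 over Con (adjusted p = 0.0207) and by 0.77 over NCAC (adjusted p = 0.00724). The week 4 call against Con was lost without CAC replicate 2 (adjusted p = 0.0829) and without Con replicate 1, 4 or 5 (adjusted p = 0.0768, 0.0725 and 0.0541), and the call against NCAC with all 62 libraries (adjusted p = 0.0939).

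At week 6 Cp reached 31.2, 42.4, 29.6, 34.7 and 27.0 TPM in CAC hearts, against 8.78 to 16.1 TPM in NCAC hearts and 8.47 to 14.3 TPM in Con hearts. The arms no longer overlapped, and Cp was higher by 1.44 ± 0.21 over Con (limma adjusted p = 1.37e-07) and by 1.42 over NCAC (adjusted p = 2.02e-07). Cp thus had the highest level of the 9 genes in mock-injected hearts and, at weeks 4 and 6, the smallest of the log2 differences that passed. At week 8 it ran from 12.8 to 45.5 TPM in CAC hearts, against 7.30 to 19.9 TPM in NCAC hearts and 11.6 to 15.5 TPM in Con hearts. Replicate 3, at 12.8 TPM, fell within both other ranges, and the other 6 CAC hearts held 34.6 TPM or more.

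Itih4 encodes an inter-alpha-trypsin inhibitor heavy chain family member of plasma; the gene lies at chr14:30886476-30902353. At week 2 it was 1.64, 3.96, 7.10, 3.34 and 3.21 TPM in CAC hearts, against 0.581 to 1.37 TPM in NCAC hearts and 0.558 to 2.15 TPM in Con hearts. All 5 CAC hearts lay above the NCAC range and 4 of 5 above the Con range. It was the only one of the 6 tested genes to pass at week 2, higher by 1.07 ± 0.28 over Con (limma adjusted p = 0.0302) and by 1.27 over NCAC (adjusted p = 0.0162). That week 1.83% of all genes tested were called higher and 0.00797% lower against Con, and 0.582% higher and 0.00797% lower against NCAC. The call against Con was lost under median-of-ratios rescaling (1.01, adjusted p = 0.0547), without the filter on low values (adjusted p = 0.0508), in a fit of the compared groups alone (adjusted p = 0.101) and with all 62 libraries (adjusted p = 0.242). It was also lost without CAC week 2 replicate 2, 3 or 4 (adjusted p = 0.0743, 0.107 and 0.0762) or Con week 2 replicate 1 or 2 (adjusted p = 0.139 and 0.0832). The call against NCAC was lost with all 62 libraries (adjusted p = 0.0557) and without CAC week 2 replicate 3 or 4 (adjusted p = 0.104 and 0.0585) or NCAC week 2 replicate 1 or 5 (adjusted p = 0.0597 and 0.0778).

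At week 4 Itih4 was 7.20, 15.4, 7.98, 14.5 and 7.96 TPM in CAC hearts, against 0.697 to 1.63 TPM in NCAC hearts and 0.932 to 1.65 TPM in Con hearts. At week 6 it was 32.5, 33.3, 23.4, 16.6 and 19.99 TPM in CAC hearts, against 0.528 to 1.20 TPM in NCAC hearts and 0.826 to 1.52 TPM in Con hearts. The ranges were apart at both weeks, and the CAC hearts at week 6 were also all above those at week 4. Itih4 was higher than in Con by 2.30 ± 0.29 at week 4 (limma adjusted p = 2.24e-07) and by 3.54 ± 0.28 at week 6 (adjusted p = 2.98e-14). Against NCAC it was higher by 2.36 (adjusted p = 3.43e-08) and 3.74 (adjusted p = 1.12e-14). At week 8 it ran from 7.08 to 48.5 TPM in CAC hearts, against 0.512 to 1.20 TPM in NCAC hearts and 1.13 to 1.93 TPM in Con hearts. At week 6 the CAC hearts stood at 25.2 ± 7.49 TPM for Itih4 (SD, n = 5), beside 137 ± 93.9 TPM for Lcn2 and 24.6 ± 37.4 TPM for Saa3.

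**Figure D2:**
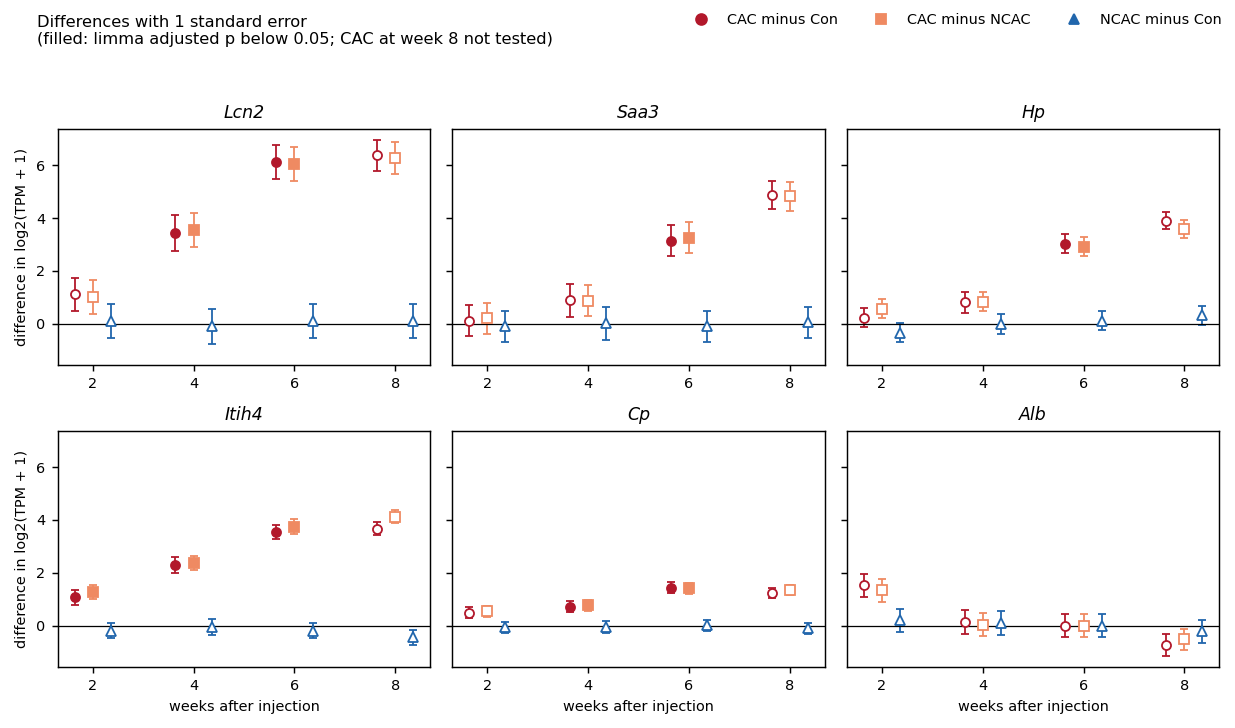
Difference in mean log2(TPM + 1) with 1 standard error for the 6 genes tested, by weeks after injection, for CAC minus Con (circles), CAC minus NCAC (squares) and NCAC minus Con (triangles); filled symbols passed a limma adjusted p of 0.05, and CAC at week 8 was not tested. Lcn2 reached 6.13 over Con at week 6 and Itih4 3.54. All NCAC minus Con symbols are unfilled and lie between -0.45 (Itih4) and 0.32 (Hp), both at week 8.

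Orm1 encodes orosomucoid, an acidic glycoprotein that carries drugs and lipids in plasma. Its highest value in any library was 0.648 TPM, in CAC week 2 replicate 4, and it could not be tested. At week 8 it ran from 0.0630 to 0.316 TPM in CAC hearts, against 0 to 0.105 TPM in NCAC hearts and 0 to 0.0625 TPM in Con hearts. The CAC hearts lay above the Con hearts in that week, but at a level that few reads can produce. The Orm1 transcript is 91.0% identical to that of Orm2 and 86.2% to that of Orm3, so its values are uncertain in the same way as those of Saa1 and Saa2.

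Alb encodes albumin, the main plasma protein and a defining product of hepatocytes. At week 2 it was 2.36, 6.99, 0.671, 18.0 and 2.77 TPM in CAC hearts, against 0.628, 4.96, 0.0179, 0.0925 and 1.96 TPM in NCAC hearts and 0.136, 1.83, 0.0955, 3.34 and 0.0383 TPM in Con hearts. The arms overlapped, with high and low libraries in each, and the log2 difference of 1.53 ± 0.44 from Con did not pass (limma adjusted p = 0.0503). The difference from NCAC was 1.33 (adjusted p = 0.134). It passed against Con without CAC week 2 replicate 1 or 3 (adjusted p = 0.0429 and 0.0304) or Con week 2 replicate 4 (adjusted p = 0.018), and with CAC week 8 replicate 3 left out of the fit (adjusted p = 0.0349). At week 4 Alb was 0.0387, 0, 1.37, 0 and 0.566 TPM in CAC hearts, against 0 to 0.906 TPM in NCAC hearts and 0 to 0.807 TPM in Con hearts. At week 6 it was listed at 0 in all 5 CAC hearts, and no NCAC or Con heart exceeded 0.0367 TPM. At week 8 it was listed at 0 in 6 of 7 CAC hearts and in 4 of 5 NCAC hearts, whereas all 5 Con hearts lay between 0.435 and 2.07 TPM.

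Libraries with high Alb also held other hepatocyte transcripts. CAC week 2 replicate 4, with 18.0 TPM of Alb, had 8.41 TPM of Apoa2, 3.88 TPM of Apoa1 and 1.67 TPM of Mup10, which code for apolipoproteins and a major urinary protein. CAC week 2 replicate 2, with 6.99 TPM of Alb, had 6.47 TPM of Apoa2, and NCAC week 8 replicate 5, with 5.98 TPM of Alb, had 1.83 TPM. The summed level of the 15 hepatocyte markers ran from 4.08 to 25.0 TPM in CAC hearts at week 2, against 2.18 to 9.61 TPM in NCAC hearts and 1.94 to 8.15 TPM in Con hearts. The part of these transcripts in the Alb values was not tested. At week 6 the same sum was 15.6 to 27.1 TPM in CAC hearts, against 1.87 to 4.67 TPM in NCAC hearts and 2.33 to 4.86 TPM in Con hearts, while Alb was listed at 0 in the CAC hearts. That later sum was mostly Ahsg and Fetub, the fetuin genes, at 12.3 ± 2.50 and 5.55 ± 2.12 TPM in CAC hearts (SD, n = 5), and Apoa2 averaged 0.141 TPM there. Ahsg was higher in CAC hearts than in Con hearts at week 6 by 2.16 (limma adjusted p = 7.63e-07) and Fetub by 2.16 (limma adjusted p = 4.44e-10). No NCAC or Con library exceeded 0.612 TPM of Fetub. The gene thus passed the filter on low values only through CAC hearts, and its p-value carries no weight of its own.

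**Figure D3:**
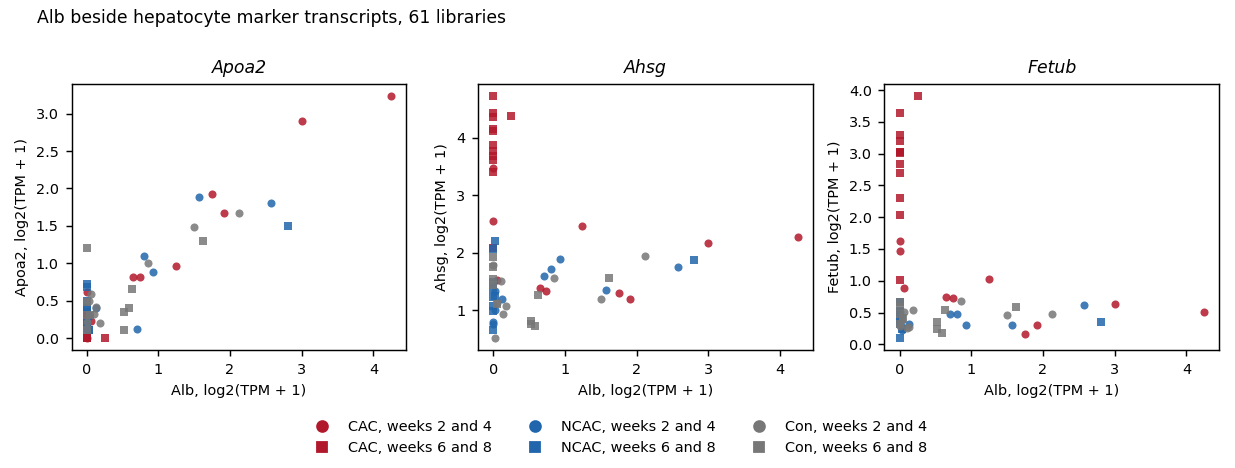
Alb against Apoa2, Ahsg and Fetub, all as log2(TPM + 1), in 61 heart libraries; colours give the arm (CAC red, NCAC blue, Con grey), circles weeks 2 and 4 and squares weeks 6 and 8. Apoa2 is high where Alb is high, up to CAC week 2 replicate 4 with 18.0 TPM of Alb, whereas Ahsg and Fetub are highest in CAC hearts at weeks 6 and 8, nearly all with Alb at 0.

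Counted over the tested genes, 3 of 6 were higher in CAC than in Con hearts at week 4 (Lcn2, Itih4 and Cp) and 5 of 6 at week 6, with Alb the exception. Over all genes tested, 12.7% were called higher at week 4 and 50.5% at week 6, and 2.36% and 5.25% lower. Against NCAC Lcn2, Itih4 and Cp passed at week 4 and all of the 6 but Alb at week 6, beside 13.7% and 47.7% of all genes called higher and 2.84% and 6.85% lower. Lcn2 reached 1 TPM in enough NCAC and Con libraries to pass the filter on low values without CAC hearts. Saa3 passed that filter only through the CAC groups where it was high, and Hp mainly so. These counts of genes therefore carry no weight of their own. Under median-of-ratios rescaling, which sets the median shift of all genes near 0, 8.49% were called higher and 6.91% lower than in Con at week 4, and 19.2% and 18.1% at week 6. Against NCAC at week 6 the rescaled shares were 20.5% and 20.1%. The 5 genes called at week 6 and the 3 called at week 4 kept their direction and their call under that rescaling. In RNA from whole hearts, more or fewer cells of a type and more or less RNA per cell cannot be told apart.

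Between NCAC and Con hearts none of the 6 tested genes passed the test at any week. The SE of each gene came from all 12 groups, the widely ranging CAC hearts included. For Lcn2 at week 6 it was 0.64, for a difference of 0.088. The lack of a call here therefore does not show that the arms were equal. The lowest limma adjusted p was 0.442, for Itih4 at week 8, with a difference of -0.45. In that comparison 4 of the 5 NCAC hearts lay below every Con heart. Across all genes the NCAC and Con comparison called 0 genes at weeks 2, 4 and 6, where 1003, 103 and 213 genes had an unadjusted p below 0.05, and 0.486% higher and 0.223% lower at week 8. Without CAC week 8 replicate 3 the week 8 shares were 0.886% higher and 0.694% lower, and the lowest adjusted p among the 6 genes was 0.242. The NCAC level of Lcn2 was 0.740 ± 0.148 TPM at week 6, against 0.636 ± 0.119 TPM in Con hearts (SD, n = 5 each). Lcn2 in NCAC week 2 replicate 2, at 2.42 TPM, was the highest value of this gene outside the CAC arm.

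Whether the CAC difference itself grew between weeks was tested as a difference of differences. From week 2 to week 4 the CAC minus Con difference was larger by 2.33 for Lcn2 (limma adjusted p = 0.637) and by 1.23 for Itih4 (adjusted p = 0.629). From week 4 to week 6 it was larger by 2.69 for Lcn2 (adjusted p = 0.161), 2.26 for Saa3 (adjusted p = 0.187), 2.22 for Hp (adjusted p = 0.0502) and 1.24 for Itih4 (adjusted p = 0.141). None of these passed with all 61 libraries. Over all genes the first test called 0 genes, with 834 at an unadjusted p below 0.05, and the second called 0.0638% higher and 0.0159% lower. With CAC week 8 replicate 3 left out of the fit, an alternative chosen after the values were seen, the second test called 3.28% higher and 0.144% lower. The growth from week 4 to week 6 then passed for Lcn2 (adjusted p = 0.00992), Saa3 (adjusted p = 0.0439), Hp (adjusted p = 0.00036) and Itih4 (adjusted p = 0.0164), with the same differences, and not for Cp (0.72, adjusted p = 0.0792). From week 2 to week 4 it passed for none of the 6 genes in that fit, where 5 genes were called in all. Replicate 3 was the lowest CAC week 8 library for these genes, so a smaller shared spread follows from leaving it out. Saa3 entered either fit only through CAC hearts, and its adjusted p carries no weight of its own. The growth of Hp also passed without CAC week 4 replicate 2, at 2.46 (adjusted p = 0.0184), without CAC week 6 replicate 5 (adjusted p = 0.0314) and in a fit of the compared groups alone (adjusted p = 0.0189).

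**Figure D4:**
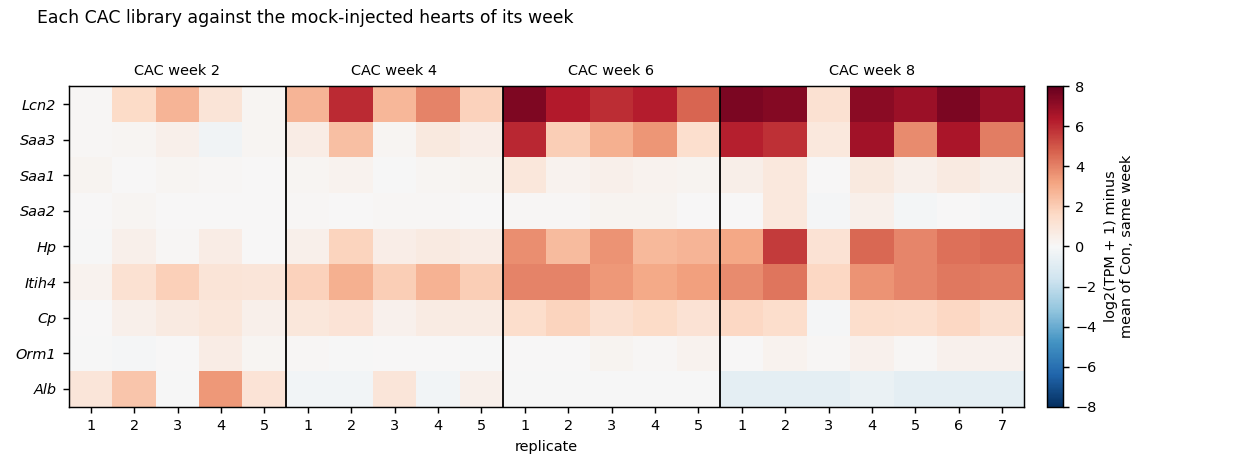
Each CAC library (columns, by week and replicate) for the 9 genes (rows), as log2(TPM + 1) minus the mean of the Con hearts of the same week; red is above and blue below that mean. Week 4 replicate 2 is darker than its group for Lcn2, Saa3 and Hp, and week 8 replicate 3 is paler than its group for Lcn2, Saa3, Hp, Itih4 and Cp.

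The CAC hearts of a week did not rank alike for every gene. At week 4 replicate 2 was the highest for Lcn2, Saa3, Hp, Itih4 and Cp, and Alb was listed at 0 in it. At week 6 replicate 1 was the highest for Lcn2, Saa3, Saa1 and Hp, but replicate 2 for Itih4 and Cp. At week 8 replicate 3 was the lowest for the same 5 genes and for Saa1, and the highest was replicate 6 for Lcn2, 4 for Saa3, 2 for Hp and Itih4, and 1 for Cp.

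Across the 61 libraries the 5 genes followed each other, given here as a description because the libraries share arms and weeks. Pearson's r of log2(TPM + 1) was 0.967 between Lcn2 and Itih4, 0.93 between Saa3 and Hp, 0.927 between Lcn2 and Hp and 0.919 between Itih4 and Cp. Within the 39 NCAC and Con libraries alone the same pairs gave -0.108, 0.127, 0.196 and 0.362. Outside the CAC arm the same pairs were thus only weakly related. With Alb, r lay between -0.293 and -0.186.

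Among all tested genes, those with the highest r over the 61 libraries were Serpina3n (0.988), Lrg1 (0.987) and Tmem38b (0.985) for Lcn2, and Cxcl13 (0.968), Ms4a8a (0.966) and Lbp (0.962) for Saa3. For Hp they were Cfi (0.971), Nfasc (0.966) and Csf2rb2 (0.965), and for Itih4 Tmem176a (0.986), Osmr (0.985) and Tmem176b (0.982). Cp was most like Ppip5k1 (0.936), Camkk2 (0.926) and Parp4 (0.925). Over the 54 libraries outside CAC week 8 these values ran from 0.881 to 0.986. Within the NCAC and Con libraries they dropped, for instance to 0.49 for Lcn2 with Serpina3n and to -0.229 for Saa3 with Cxcl13. No NCAC or Con library exceeded 0.228 TPM of Cxcl13, so that last value rests on levels near 0. Cxcl13, Ms4a8a, Cfi, Nfasc and Csf2rb2 all stayed at 0.562 TPM or less in these libraries. They thus entered the ranking only through CAC hearts, and their r over the 61 libraries carries no weight of its own. Alb differed from the rest: its r with Mup10 was 0.917 over all libraries and 0.916 within the NCAC and Con libraries, and with Apoa2 0.913 and 0.83. The next gene of that ranking, Aqp6, had an r of 0.525 with Alb.

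Other secreted proteins of the acute phase were followed in a list of 32 genes, of which 13 could be tested. Against Con, 1 was higher in CAC hearts at week 2 (Agt, the angiotensinogen gene, by 0.64, limma adjusted p = 0.0254), 9 at week 4 and 11 at week 6, beside 1.83%, 12.7% and 50.5% of all genes called higher in those weeks. With all 62 libraries no gene was called at week 2, so the Agt call was lost. Some of the 13 passed the filter on low values mainly through CAC hearts, such as Serpina3m, a serine protease inhibitor gene named here after its values were seen, at 7.41 to 32.1 TPM in CAC hearts, 0 to 0.0509 TPM in NCAC hearts and 0 to 0.102 TPM in Con hearts at week 6, so the counts and medians of this list and of the 3 lists below carry no weight of their own. Vtn, the vitronectin gene, was the single one lower, by -0.40 at week 6 (adjusted p = 0.00203). The median of the 13 log2 differences was 0.93 at week 4 and 1.64 at week 6, beside 0.09 and 0.21 over all genes. Serpina3n, which encodes a serine protease inhibitor, stood at 972 ± 516 TPM in CAC hearts at week 6, against 2.21 ± 0.763 TPM in NCAC hearts and 3.11 ± 1.31 TPM in Con hearts (SD, n = 5 each). It was higher than in Con by 5.00 at week 4 (adjusted p = 1.85e-06) and by 7.78 at week 6 (adjusted p = 3.17e-13). The complement genes C3 and C4b were higher by 2.56 and 3.56 at week 6 (adjusted p = 1.41e-10 and 2.4e-14), and Serping1, the C1 inhibitor gene, by 1.39 (adjusted p = 2.25e-10). Without CAC week 4 replicate 2, 5 of 12 genes passed at week 4 in place of 9 of 13, beside 6.29% of all genes called higher and 0.830% lower.

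The list of inducers and their signal carriers held 16 genes, of which 13 were tested. Stat3 (0.71, limma adjusted p = 0.00577) and Osmr, the oncostatin M receptor gene (0.75, adjusted p = 0.0401), were higher in CAC than in Con hearts at week 2, beside 1.83% of all genes. The count was 8 of 13 at week 4, with a median of 0.75, and 11 of 13 at week 6, with a median of 1.13, beside 12.7% and 50.5% of all genes called higher and medians of 0.09 and 0.21 over all genes. At week 6 Stat3, a transcription factor of interleukin-6 signalling, stood at 66.6 ± 8.63 TPM in CAC hearts, against 28.6 ± 3.88 TPM in NCAC hearts and 26.1 ± 2.14 TPM in Con hearts (SD, n = 5 each). It was higher than in Con by 1.31 (adjusted p = 4.31e-10), Il6st, the shared receptor chain gene, by 0.51 (adjusted p = 2.31e-05) and Cebpb by 1.13 (adjusted p = 0.00322). Nfkbia, an NF-kappaB inhibitor gene, had a difference of 0.36 that did not pass (adjusted p = 0.0873). Socs3, a feedback inhibitor of this pathway named here after its values were seen, was higher by 4.06 (adjusted p = 3.17e-13). Il6 itself averaged 0.039 TPM and was at 0 in 24 libraries. Without CAC week 4 replicate 2, 6 of 13 passed at week 4, beside 6.29% of all genes called higher and 0.830% lower. With all 62 libraries no gene was called at week 2, so the week 2 calls of Stat3 and Osmr were lost.

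Receptors and binding partners of these proteins made up 11 genes, of which 6 were tested. At week 4 Tlr4 and Cd36 were higher in CAC than in Con hearts, by 0.82 and 0.35 (limma adjusted p = 0.000151 and 0.00803). At week 6, 5 of 6 were higher, beside 50.5% of all genes, among them Cd163, the haptoglobin-haemoglobin scavenger receptor gene of macrophages, by 2.04 (adjusted p = 5.75e-09). Its level was 18.0 ± 4.23 TPM in CAC hearts, against 3.68 ± 1.07 TPM in NCAC hearts and 3.57 ± 0.741 TPM in Con hearts (SD, n = 5 each). Scarb1, Tlr4, Cd36 and Tlr2, receptors that bind lipoproteins or serum amyloid A, were higher by 0.67, 0.84, 0.43 and 0.31. Slc22a17, the gene of a lipocalin-2 receptor, had a difference of 0.16 that did not pass (adjusted p = 0.287). Under median-of-ratios rescaling 3 of 6 passed at week 6, beside 19.2% of all genes called higher and 18.1% lower. Without CAC week 4 replicate 2 a single gene passed at week 4, beside 6.29% and 0.830% of all genes.

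Genes of iron, copper and haem handling, the cargo of Lcn2, Hp and Cp, numbered 14, of which 11 were tested. Trf, the transferrin gene, was higher in CAC than in Con hearts by 0.80 at week 2 (limma adjusted p = 0.0467), 1.33 at week 4 (adjusted p = 9.19e-05) and 1.76 at week 6 (adjusted p = 9.94e-09). At week 2, 1.83% of all genes were called higher. With all 62 libraries no gene was called at week 2, so that call of Trf was lost. In all, 5 of 11 were higher at week 4, beside 12.7% of all genes, and 9 of 11 at week 6, beside 50.5%, and 0 were lower. The other four at week 4 were Hmox1, the haem oxygenase gene (1.15, adjusted p = 0.0301), Slc39a14 (0.74, adjusted p = 0.0046), Steap4 (0.45, adjusted p = 0.0392) and Ftl1 (0.38, adjusted p = 0.0429). Fth1 and Ftl1, the ferritin chain genes, were higher by 0.23 and 0.53 at week 6 (adjusted p = 0.0114 and 0.000339), and Slc48a1, a haem transporter gene, by 0.17 (adjusted p = 0.0167). The Fth1 and Slc48a1 differences are close to the median shift of all genes. Tfrc, the transferrin receptor gene, had differences of -0.87 at week 4 and -0.36 at week 6 that did not pass (adjusted p = 0.133 and 0.426). At week 4, 3 of 11 passed under median-of-ratios rescaling, beside 8.49% of all genes called higher and 6.91% lower. Without CAC week 4 replicate 2 the count was 2 of 11, beside 6.29% and 0.830%. At week 6, rescaling gave 7 higher and 1 lower, beside 19.2% and 18.1% of all genes. None of the genes of these 4 lists passed between NCAC and Con hearts at any week.

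Markers of cells that can make these proteins were also compared, with 12.7% of all genes called higher than in Con at week 4 and 50.5% at week 6. All 10 macrophage markers were higher than in Con at week 6 and 9 of 10 at week 4, among them Lyz2 by 0.90 and C1qa, C1qb and C1qc by 1.64, 1.77 and 1.72 at week 6. Their summed level was 443 to 739 TPM in CAC hearts at week 6 (median 582), against 220 to 334 TPM in NCAC hearts (median 245) and 202 to 327 TPM in Con hearts (median 210). Of 5 tested neutrophil markers 3 were higher at week 6, Retnlg by 0.95, Csf3r by 0.79 and Cxcr2 by 0.43, which is near the share over all genes, and 0 at week 4. S100a9 and S100a8, highest in mean level at 10.3 and 4.28 TPM over the 61 libraries, were not among the 3. The neutrophil sum was 12.2 to 33.9 TPM in CAC hearts, against 6.21 to 30.4 TPM in NCAC hearts and 8.67 to 12.8 TPM in Con hearts. Elane was at 0 in all 61 libraries and Mpo in 52. Of 7 tested fat cell markers 3 were higher at week 6, Cfd by 1.24, Plin4 by 0.79 and Lipe by 0.72, with a sum of 182 to 233 TPM in CAC hearts, against 99.2 to 163 TPM in NCAC hearts and 86.4 to 130 TPM in Con hearts. That count is no larger a share than over all genes, whereas against NCAC at week 6 the fat cell markers gave 6 higher and 1 lower, beside 47.7% and 6.85% of all genes. After median-of-ratios rescaling the count against Con was 1 higher and 1 lower of 6, beside 19.2% and 18.1% of all genes. The fat cell sum is mostly Plin4, at a mean of 110 TPM over the 61 libraries, and Lipe, at 15.1 TPM. Adipoq, Cidec, Retn and Plin1 averaged 0.472, 0.379, 0.257 and 0.0819 TPM, so the sum says little about them. The part of these cells in the levels of the 9 genes was not tested.

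The other cell type lists were compared between CAC and Con hearts at week 6 against the same shares of all genes, 50.5% higher and 5.25% lower. Aldh1a2 was the single one of 4 tested mesothelial markers to be higher, by 1.46 (limma adjusted p = 8.2e-05), with sums of 13.9 to 24.7 TPM in CAC hearts, 4.95 to 11.3 TPM in NCAC hearts and 6.17 to 10.3 TPM in Con hearts. Of 8 fibroblast markers 3 were higher, Pdgfra by 0.45, Dcn by 1.01 and Dpt by 0.40, and Postn was lower, by -1.24. Of 6 endothelial markers 0 were higher and 2 lower, Cdh5 by -0.34 and Kdr by -0.63. Of 7 cardiac muscle markers 3 were higher, Myh6 by 0.25, Tnnt2 by 0.89 and Tnni3 by 0.15, and 0 lower. The Myh6 and Tnni3 differences are close to the median shift of all genes, 0.21. After median-of-ratios rescaling 1 of the 7 markers passed, beside 19.2% of all genes called higher and 18.1% lower. The cardiac muscle sum was 29082 to 34361 TPM in CAC hearts, against 27954 to 30887 TPM in NCAC hearts and 27215 to 32015 TPM in Con hearts. Of 3 tested melanocyte markers Mlana was higher by 1.43 (adjusted p = 2.87e-07) and Dct lower by -0.69 (adjusted p = 0.0135), and Tyr was at 0 in 58 libraries. Of 5 tested hepatocyte markers 4 were higher, Apoh and Cyp2e1 by 0.67 and 0.66 beside Ahsg and Fetub, and Apoa2 had a difference of -0.30 that did not pass (limma adjusted p = 0.432). Fetub passed the filter on low values only through CAC hearts, so this count carries no weight of its own. The counts of the other cell type lists are likewise given as description.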

How the data were processed

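RNA from mouse hearts was extracted with Trizol, prepared with the TruSeq stranded mRNA kit and sequenced on an Illumina NovaSeq, per the labels' protocols, which call the samples biological replicates. The labels do not state that each library came from a separate animal, so p-values measure the spread between these samples. The authors deposited TPM, 1 column per sample, on mm10 per the submitters' processing notes. The aligner, counter and annotation are not given in the sources used here. Each of the 62 columns sums to 1000000, so the depth of a library is unknown.

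The TPM were analysed as log2(TPM + 1) with limma 3.58.1 in R 4.3.3 (group means, empirical Bayes with a mean trend) over 61 libraries, on the 12541 genes that reached 1 TPM in 5 or more libraries. Con week 4 replicate 2 was left out as set with the choice of genes. P-values are two-sided and Benjamini-Hochberg adjusted over all genes of a comparison, with a threshold of 0.05. On simulated data for CAC against Con at week 6 (12541 genes) the fit recovered 80% of genes given a log2 change of 0.5, 98% of those given 1 and 100% of those given 2 or 4, with 7 false calls. The members, the gene lists and the tests were chosen with earlier results of these data known. Named were the 9 genes and the 3 genes of highest r with each tested one. In the lists of partners, inducers, receptors and metal handling the 4 genes with the highest mean TPM were named, and every gene called where 5 or fewer were. In the cell type lists mainly the genes called were named, and some markers of high mean TPM were not. Socs3 and Serpina3m are additions. Promoters are from RefSeq (GRCm38.p6) and gene coordinates from GENCODE M21. Alternatives were another pseudocount (0.1 TPM), other filters, 2 rescalings, all 62 libraries, the compared groups alone, a replicate block, and leaving out each library. Figures were drawn with matplotlib 3.10.9 in Python 3.11.15.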

Additional observations from a re-analysis of the deposited data

Results flagged for a closer look

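In 8 of 50 groups of one gene's values a single library lay far from all others of its group. Only groups whose highest library reached 1 TPM were judged, which favours groups with a single high library. Some libraries were also flagged for several genes. The share of about 5% that holds for independent, normally spread values is therefore no fair measure for this count. In CAC week 8, replicate 3 was far below the others for Lcn2 (3.22 TPM, others 209 to 342 TPM), Itih4 (7.08 TPM, others 30.3 to 48.5 TPM) and Cp (12.8 TPM, others 34.6 to 45.5 TPM). In CAC week 4, replicate 2 was far above the others for Saa3 (5.72 TPM, others 0.437 to 1.22 TPM) and Hp (4.41 TPM, others 1.11 to 1.62 TPM). Lcn2 stood at 2.42 TPM in NCAC week 2 replicate 2, where the others held 0.768 to 0.943 TPM. Alb stood at 5.98 TPM in NCAC week 8 replicate 5, where the others were listed at 0. Alb stood at 2.07 TPM in Con week 8 replicate 5, where the others held 0.435 to 0.545 TPM.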

How the results depend on the processing

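Depth cannot be read from TPM, so low values carry an unknown counting error. In CAC against Con, 231 genes were called at week 2, 1883 at week 4 and 6997 at week 6. Median-of-ratios rescaling gave 56 at week 2 (51 higher, 5 lower), 1058 higher and 862 lower at week 4, and 4656 at week 6 (2399 higher, 2257 lower). Leaving out mitochondrial and haemoglobin genes gave 52 at week 2 (47 higher, 5 lower), 1006 higher and 814 lower at week 4, and 2255 higher and 2586 lower at week 6. All 62 libraries gave 0, 7424 and 3315, and the compared groups alone 22 at week 2. Leaving out single libraries, here always those of the groups compared, gave 31 to 348 at week 2, 893 to 1961 at week 4, lowest without CAC week 4 replicate 2, and 6103 to 7161 at week 6. In CAC against NCAC, 74, 2074 and 6841 genes were called. Rescaling gave 61 higher and 30 lower, 1219 and 1024, and 2562 and 2500, and leaving out mitochondrial and haemoglobin genes 48 and 15, 1152 and 999, and 2605 and 2554. All 62 libraries gave 2, 621 and 3274, the compared groups alone 132 at week 2, and single libraries left out 7 to 132, 1108 to 2176 and 5901 to 7150. Leaving CAC week 8 replicate 3 out of the fit, chosen after the values were seen, gave 552 and 188 at week 2, 198 in NCAC against Con at week 8 (111 higher, 87 lower), 5 for week 4 minus week 2 and 429 for week 6 minus week 4 (411 higher, 18 lower). In NCAC against Con at week 8, 89 genes were called, 727 after rescaling (538 higher, 189 lower), 1057 without mitochondrial and haemoglobin genes (175 higher, 882 lower), 1 with all 62 libraries, 6 in the compared groups alone and 17 to 395 with single libraries left out. In NCAC against Con at weeks 2, 4 and 6, 0 genes were called with any single library of the groups compared left out. For week 4 minus week 2, 0 genes became 1 without the filter, 1 with the 5 TPM filter, 1 with all 62 libraries and 0 to 3 with single libraries of those groups left out. For week 6 minus week 4, 10 became 1 with a pseudocount of 0.1 TPM, 0 without the filter, 17 after rescaling, 2 with all 62 libraries, 32 in the compared groups alone and 0 to 81 with single libraries of those groups left out. The cause of these changes was not tested. At week 8, 8 of the 9 genes had a higher mean in CAC than in both other arms with a pseudocount of 0.1 TPM. The count was the same under both rescalings, with all 62 libraries and with each week 8 library left out. Of the 8, Saa1, Saa2 and Orm1 are means below the filter. The genes were chosen with these differences in view, so the count carries no weight of its own. Over all genes tested the week 8 median log2 difference was 0.19 against Con and 0.24 against NCAC, with 50.8% and 57.4% called higher. The described value of Alb in CAC against NCAC at week 8 changed sign without NCAC week 8 replicate 5, and ran from -0.665 to 0.0355 with single libraries left out. Over the tested weeks, 19 values of single genes and settings lost a call, 17 gained one and 1364 kept direction and call. Equal replicate numbers did not pair the samples, since the correlation of their deviations ran from -0.276 to 0.412. With the replicate number as a block, 197, 1566 and 6933 genes were called in CAC against Con, 60, 2082 and 6762 in CAC against NCAC, 79 in NCAC against Con at week 8, 0 for week 4 minus week 2 and 9 for week 6 minus week 4. The block moved no count by over 1.5 times, and Hp at week 6 minus week 4 passed with it, at 2.31 (limma adjusted p = 0.0437).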
